A study of Mus musculus with 11 samples.

Results

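The 10 genes described here are Egr1, Egr2, Egr3, Srf, Ier2, Ier3, Ier5, Zfp36, Zfp36l1 and Zfp36l2, taken from 54686 entries of a gene expression table by their symbols. Early response genes are transcribed within minutes of a signal, without new protein synthesis, and many of their mRNAs are short-lived. SRF, with its partner factors, binds the CArG boxes of many of them, and the EGR proteins are zinc finger transcription factors made in the first wave. The ZFP36 proteins bind AU-rich elements in mRNAs and bring deadenylases to them, so that this set holds both activators of transcription and factors that shorten the life of transcripts.

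All libraries came from B16-OVA, a C57BL/6J mouse melanoma line that carries ovalbumin. The study asked how YAP and TAZ, co-activators of TEAD transcription factors and the outputs of the Hippo pathway, bear on the heat shock transcriptome. Every culture was transfected, either with a control siRNA or with pooled siRNAs that target YAP and TAZ (genes Yap1 and Wwtr1). Heated cells spent 1 h at 45 °C, starting 48 h after transfection, and then 6 h at 37 °C before RNA was taken, so that an early wave of transcription was sampled once, after recovery. There were 3 unheated and 2 heated control siRNA libraries (heated replicates 1 and 3), and 3 unheated and 3 heated YAP/TAZ siRNA libraries. A single cell line and 1 siRNA pool were used, and nothing in the labels tells whether the replicates were cultured apart. The p-values therefore reflect the scatter of these libraries alone, part or all of which may be technical. The YAP/TAZ siRNA libraries are also called knockdown libraries.

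Levels are FPKM, fragment numbers scaled by gene length and library size. Estimated depth was 30.5 to 43.9 M fragments (M, mega) per library, and the heated control libraries held 23173 to 23242 entries above 0, against 20000 to 20365 in the unheated control libraries. Mean Yap1 without heat was 9.56 FPKM with control siRNA (libraries from 5.795 to 15.63 FPKM) and 2.77 FPKM with YAP/TAZ siRNA (2.54 to 3.02 FPKM). After heat it was 8.44 FPKM (5.965 to 10.91 FPKM) against 2.38 FPKM (2.26 to 2.61 FPKM). Mean Wwtr1 was 6.62 against 1.77 FPKM without heat and 6.99 against 1.56 FPKM after heat. The 7 melanocyte markers summed to between 6260 and 8190 FPKM. The 6 leukocyte markers summed to 2.59 to 2.80 FPKM in unheated and 7.94 to 8.42 FPKM in heated control libraries, and to 1.47 to 2.07 and 3.01 to 3.34 FPKM with YAP/TAZ siRNA. Ptprc, the pan-leukocyte gene, was listed at 0 in all 11 libraries, but Cd68 ranged from 0.302 to 4.83 FPKM and Lyz2 from 1.01 to 2.48 FPKM. Of 3 leukocyte markers tested (Cd68, Lyz2 and Cd79a, the last at 0 to 1.87 FPKM), 2 rose with heat under control siRNA, against 12.4% of all genes. All 3 were lower with YAP/TAZ siRNA after heat, against 17.9% of all genes. Cd68 and Cd79a were not at 1 FPKM in every library. Their entry to the tests may rest on the groups where they were high, so these counts are a description only. The 5 fibroblast markers summed to 2.87 to 3.16 FPKM in unheated and 1.46 to 1.48 FPKM in heated control libraries. Dcn was listed at 0 throughout, while Pdgfrb reached 1.71 FPKM and Col1a2 1.3 FPKM. The 2 endothelial markers summed to at most 0.0541 FPKM and to 0.918 to 1.08 FPKM in the same groups, all of it Pecam1, with Cdh5 listed at 0 throughout. The part of these markers in the results was not tested. In bulk RNA, fewer cells with a transcript and less transcript per cell cannot be told apart.

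Promoters are shown for 4 of the 6 genes with a window, to set the motif matches beside the heat responses: Zfp36 and Zfp36l1 rose with heat under control siRNA, Ier3 fell with heat under YAP/TAZ siRNA, and Srf encodes the CArG-binding factor. Srf and Zfp36 carry the same pair of motif matches, Zfp36l1 carries others, and Ier3 carries none of those searched. Ier5, which also rose with heat under control siRNA, has a window without matches and is not printed, and Srf was not called with heat there. A link between motifs and heat response was not tested. The sequences are the 150 bases before the RefSeq start on GRCm38.p6, 5′ to 3′ on the gene's strand, with the matches in capitals. They lie at chr17:46556163-46556312 (minus strand) for Srf, chr7:28379229-28379378 (minus) for Zfp36, chr12:80113014-80113163 (minus) for Zfp36l1 and chr17:35821563-35821712 (plus) for Ier3.
Srf: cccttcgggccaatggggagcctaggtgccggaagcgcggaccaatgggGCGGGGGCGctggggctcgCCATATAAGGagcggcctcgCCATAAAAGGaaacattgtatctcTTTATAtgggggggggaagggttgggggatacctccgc
Zfp36: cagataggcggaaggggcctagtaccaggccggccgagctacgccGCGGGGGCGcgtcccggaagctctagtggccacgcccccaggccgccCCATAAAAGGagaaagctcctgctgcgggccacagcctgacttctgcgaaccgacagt
Zfp36l1: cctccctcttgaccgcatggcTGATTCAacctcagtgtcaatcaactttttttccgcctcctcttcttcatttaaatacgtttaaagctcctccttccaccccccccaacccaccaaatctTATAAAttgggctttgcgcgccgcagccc
Ier3: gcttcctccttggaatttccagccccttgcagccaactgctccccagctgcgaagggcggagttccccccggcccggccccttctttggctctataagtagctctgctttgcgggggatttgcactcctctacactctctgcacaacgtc

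Of the 10 genes, 6 had a RefSeq promoter window (Egr2, Srf, Ier3, Ier5, Zfp36 and Zfp36l1). Windows of 300 bases, from 250 before to 50 after the start, were searched on both strands for 9 motifs. The Srf promoter held CArG boxes starting 82 and 62 bases upstream (CCATATAAGG and CCATAAAAGG), and Zfp36 held CCATAAAAGG starting 58 bases upstream. CArG boxes were found in 1.63% of 32851 windows. Both promoters also held the EGR motif GCGNGGGCG, present in 5.55% of windows, starting 101 bases upstream in Srf and 105 in Zfp36. Srf held TATAAA on the opposite strand, 38 bases upstream. Zfp36l1 held the AP-1 motif TGANTCA (7.81% of windows) 129 bases upstream and TATAAA (13.6%) 29 bases upstream. Egr2 had 5 windows, of which 4 held a CArG box. Those starting at 67537619, 67537620 and 67537680 overlap and hold the same box (CCATATATGG). The window starting at 67537316 held another box (CCTTTTTTGG), and in it the heat shock element TTCNNGAA (8.52%) overlapped the TEAD motif GGAATG (14.7%). No match to these 9 motifs, which also included GAANNTTC (7.86%), TGACGTCA (1.79%) and CCGGAAGT (3.89%), was found in the windows of Ier3 and Ier5. The RefSeq starts of Srf, Zfp36, Ier3 and Egr2 lie inside the gene spans of the other annotation used here for positions, GENCODE M21. The last of the bases printed for Srf and Ier3 are within those spans. For Zfp36 all of the printed bases are, with the CArG box and the EGR match among them.

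**Figure D1:**
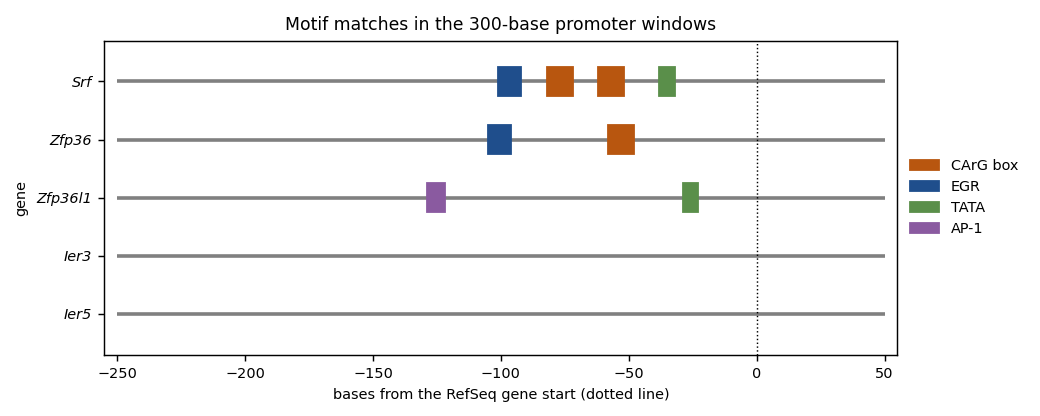
Positions of motif matches in the promoter windows, as the distance in bases from the RefSeq start (x axis), with 1 line for each of 5 genes. Srf and Zfp36 each show a CArG box within 82 bases of the start and an EGR match further upstream, and the lines of Ier3 and Ier5 are empty.

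Heat raised 5 of the 8 tested genes in control siRNA cells, and after heat all 8 were lower with YAP/TAZ siRNA than with control siRNA. Egr1, Ier2, Ier5, Zfp36 and Zfp36l1 rose under control siRNA, and of these Egr1 also rose under YAP/TAZ siRNA. Egr1 entered the tests only because it passed the filter on low values in the heated groups, so its rise with heat is no support for these counts, and without it 4 of 7 genes rose under control siRNA. Ier3, which encodes a regulator of survival signalling, fell with heat under YAP/TAZ siRNA, and its heat response differed between the siRNAs by -2.08 ± 0.20 on the log2 scale (adjusted p = 9.6e-05). Changes are differences in log2(FPKM + 1) ± standard error from limma, a scale that understates low genes, with p-values adjusted by the Benjamini-Hochberg method over 12626 genes and calls at 0.05. Ratios of mean FPKM are given beside them. For low genes the pseudocount sets the size of the change: with 5 in place of 1, heat under control siRNA gave 0.90 for Egr1, 0.61 for Ier5 and 0.75 for Zfp36, all still called.

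Against the background, 49.2% of all tested genes were called with heat under control siRNA, 12.4% as higher and 36.9% as lower, where 5 of 8 members rose. Under YAP/TAZ siRNA 50.3% were called with heat, 18.6% as higher and 31.7% as lower. Apart from Egr1, no member rose and 2 fell. For the difference between the heat responses (the interaction), 37.9% were called, 24.6% as higher and 13.4% as lower, and 6 members had a lower response with YAP/TAZ siRNA. YAP/TAZ siRNA without heat called 49.0% of genes, 27.1% as higher and 21.9% as lower, and 3 members fell. After heat it called 54.3%, 36.3% as higher and 17.9% as lower, and 8 members fell. The median log2 change of the 8 members was 1.08, -0.08, -1.06, -0.02 and -1.01 in this order, and that of all tested genes was -0.16, -0.09, 0.11, 0.02 and 0.13. The comparisons share libraries and are not independent of each other. The groups did not overlap for 6, 4, 3 and 8 members in the comparisons other than the interaction, against 69.8%, 57.4%, 58.3% and 70.6% of all genes. Median-of-ratios scaling moved the median change of all genes with heat under control siRNA to -0.03.

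**Figure D2:**
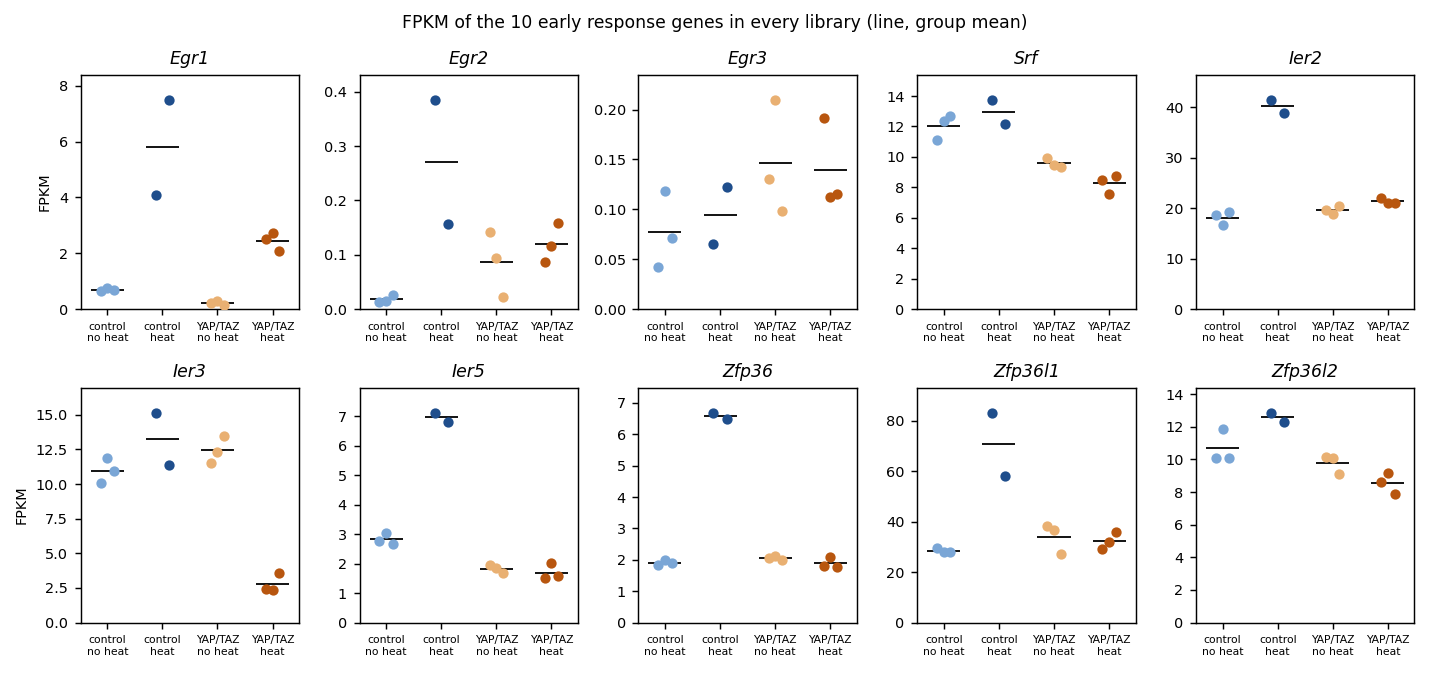
FPKM of the 10 genes in each of the 11 libraries, by group, with 1 panel per gene, a scale of its own in each and a line at the group mean. The 2 heated control libraries stand above all others for Ier2, Ier5, Zfp36 and Zfp36l1, and the 3 heated YAP/TAZ siRNA libraries stand below all others for Ier3.

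Srf, on chromosome 17 (46548329 to 46556175, minus strand, ENSMUSG00000015605), encodes the factor that binds CArG boxes. It measured 11.1, 12.4 and 12.7 FPKM in the unheated control libraries and 13.8 and 12.2 FPKM in the heated ones. The unheated YAP/TAZ siRNA libraries gave 9.91, 9.45 and 9.37 FPKM and the heated ones 8.49, 7.57 and 8.78 FPKM. All 6 YAP/TAZ siRNA libraries lay below all 5 control libraries, while the heated and unheated control libraries overlapped. YAP/TAZ siRNA changed Srf by -0.30 ± 0.07 without heat (adjusted p = 0.00649) and by -0.59 ± 0.08 after heat (adjusted p = 2.5e-04). Heat changed it by 0.10 ± 0.08 under control siRNA (adjusted p = 0.349) and by -0.19 ± 0.07 under YAP/TAZ siRNA (adjusted p = 0.0496). That last call ended under 14 of 20 alternatives, and with median-of-ratios scaling the change under control siRNA was called at 0.25 (adjusted p = 0.0377).

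Among the EGR genes, Egr1 carried most of the signal after heat. Egr1 (chromosome 18, 34859823 to 34864984, plus strand, ENSMUSG00000038418) reached 1 FPKM in the 5 heated libraries alone, and so passed the filter on low values only through the heated groups. It measured 0.647, 0.753 and 0.697 FPKM in the unheated control libraries and 4.09 and 7.50 FPKM in the heated ones. Knockdown libraries read 0.230, 0.306 and 0.169 FPKM when unheated and 2.52, 2.72 and 2.07 FPKM when heated. All 4 groups were separate, in the order unheated YAP/TAZ, unheated control, heated YAP/TAZ and heated control siRNA. Mean FPKM was 8.29 times higher with heat under control siRNA (log2 change 1.95 ± 0.18, adjusted p = 2.4e-05) and 10.4 times higher under YAP/TAZ siRNA (1.47 ± 0.16, adjusted p = 1.4e-04).

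The heat responses of Egr1 under the 2 siRNAs were not called as different (interaction -0.48 ± 0.24, adjusted p = 0.151, 95% interval -1.03 to 0.07). With a pseudocount of 0.1 the value was 0.11, and without heated control replicate 1, the lower of the pair, it was -0.85 (adjusted p = 0.00638). After heat Egr1 was lower with YAP/TAZ siRNA (-0.94 ± 0.18, adjusted p = 0.00191), at -1.31 without heated control replicate 1 and -0.57 without heated control replicate 3, and was called in both. Without heat it was also called lower (-0.46 ± 0.16, adjusted p = 0.0401), at levels where the control mean was 2.97 times the YAP/TAZ siRNA mean, and leaving out any of 7 single libraries ended that call. The value was -1.27 with a pseudocount of 0.1 and -0.12, not called, with 5 (adjusted p = 0.311).

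Egr2 and Egr3, the other EGR factors measured, stayed under 1 FPKM in all 11 libraries and were not tested at the filter used. Egr2 (chromosome 10, 67535475 to 67542188, plus strand) reached at most 0.385 FPKM and Egr3 (chromosome 14, 70077203 to 70082614, plus strand) at most 0.210 FPKM. In a fit without the filter Egr2 was called higher with heat under control siRNA (0.31 ± 0.07, adjusted p = 0.0102), from 0.0139, 0.0153 and 0.0268 FPKM to 0.385 and 0.157 FPKM. No comparison called Egr3 in that fit.

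The IER genes answered in different ways. Ier2 (chromosome 8, 84661331 to 84662852, minus strand, ENSMUSG00000053560), a nuclear early response protein, measured 18.6, 16.7 and 19.2 FPKM in the unheated control libraries and 41.6 and 38.9 FPKM in the heated ones. The unheated YAP/TAZ siRNA libraries gave 19.7, 19.0 and 20.4 FPKM and the heated ones 22.01, 21.1 and 21.0 FPKM. The heated control libraries stood apart from the other 9, which lay between 16.7 and 22.01 FPKM. Heat raised Ier2 by 1.10 ± 0.06 under control siRNA (2.21 times in mean FPKM, adjusted p = 1.7e-06) and its value under YAP/TAZ siRNA was 0.11 ± 0.06 (adjusted p = 0.130). The responses differed by -0.99 ± 0.09 (adjusted p = 5.4e-05). The groups under YAP/TAZ siRNA did not overlap, and median-of-ratios scaling called that change at 0.21 (adjusted p = 0.0185).

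Ier5 (chromosome 1, 155096361 to 155099636, minus strand, ENSMUSG00000056708) encodes a protein reported to bind PP2A and to promote HSF1 activity. It measured 2.78, 3.03 and 2.66 FPKM in the unheated control libraries and 7.11 and 6.82 FPKM in the heated ones. Knockdown libraries read 1.95, 1.86 and 1.67 FPKM when unheated and 1.496, 2.00 and 1.57 FPKM when heated. Every YAP/TAZ siRNA library was below every control library, and the YAP/TAZ siRNA groups overlapped each other. Ier5 rose with heat under control siRNA (1.06 ± 0.09, 2.47 times, adjusted p = 1.5e-05), and its value under YAP/TAZ siRNA was -0.07 ± 0.08 (adjusted p = 0.474). It fell with YAP/TAZ siRNA both without heat (-0.44 ± 0.08, adjusted p = 0.00165) and after heat (-1.57 ± 0.09, adjusted p = 1.6e-06). The interaction was -1.13 ± 0.12 (adjusted p = 1.6e-04).

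Ier3 (chromosome 17, 35821684 to 35822923, plus strand, ENSMUSG00000003541) followed another course. It measured 10.1, 11.9 and 10.95 FPKM in the unheated control libraries and 15.1 and 11.4 FPKM in the heated ones. The unheated YAP/TAZ siRNA libraries gave 11.5, 12.3 and 13.5 FPKM and the heated ones 2.44, 2.36 and 3.55 FPKM. The control groups overlapped, and the heated YAP/TAZ siRNA libraries lay below the other 8. Heat lowered Ier3 4.47 times in mean FPKM under YAP/TAZ siRNA (log2 change -1.84 ± 0.14, adjusted p = 1.8e-05), and its change under control siRNA was 0.24 ± 0.15 (adjusted p = 0.216). Without heat the siRNAs were not called as different (0.17 ± 0.14, adjusted p = 0.342).

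**Figure D3:**
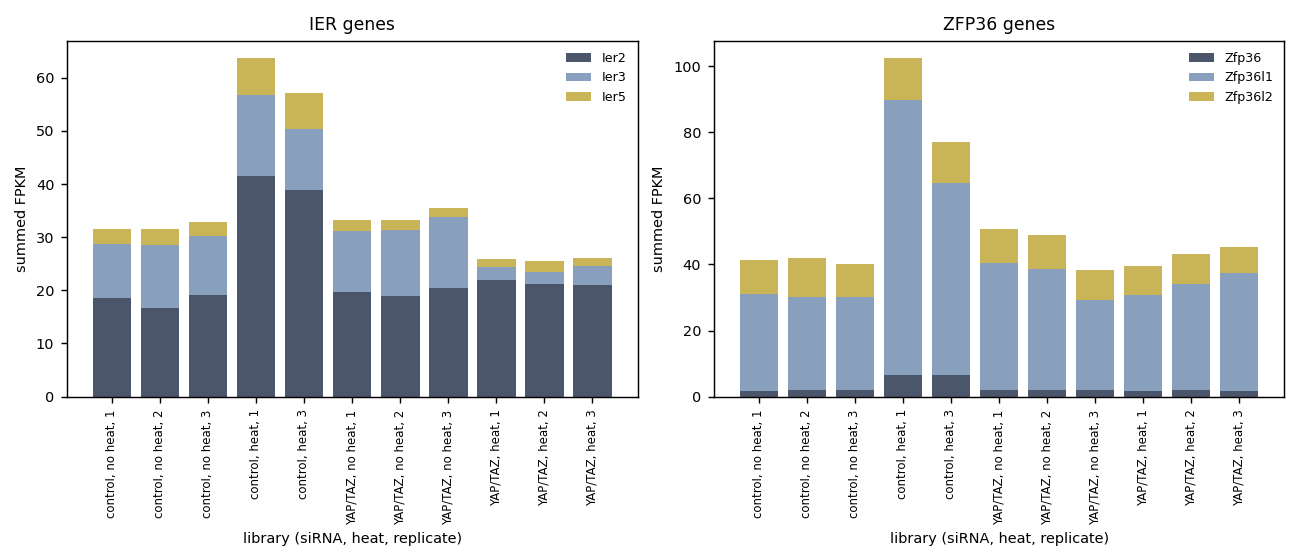
Summed FPKM (y axis) of the IER and the ZFP36 genes in each of the 11 libraries (x axis), with the part of each gene in its own colour. The IER sum of the heated YAP/TAZ siRNA libraries, 25.5 to 26.1 FPKM, is the lowest of the 4 groups, and the ZFP36 sum is highest in the heated control libraries.

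In sum the IER genes stood at 32.0 ± 0.75 FPKM (SD, n = 3) in unheated control cells and 60.5 ± 4.73 FPKM (SD, n = 2) in heated ones. With YAP/TAZ siRNA the sum was 34.0 ± 1.36 FPKM (SD, n = 3) without heat and 25.9 ± 0.33 FPKM (SD, n = 3) after it. Of that sum Ier3 made up 34.7 to 37.9% in the unheated knockdown libraries and 9.26 to 13.6% in the heated ones, where Ier2 made up 80.4 to 84.8%.

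The ZFP36 genes encode the AU-rich element binding proteins. Zfp36 (chromosome 7, 28376784 to 28380253, minus strand, ENSMUSG00000044786), which encodes tristetraprolin, measured 1.83, 2.00 and 1.89 FPKM in the unheated control libraries and 6.68 and 6.48 FPKM in the heated ones. Knockdown libraries read 2.04, 2.13 and 1.98 FPKM when unheated and 1.81, 2.07 and 1.77 FPKM when heated. The heated control libraries were the only ones above 2.13 FPKM. Zfp36 rose by 1.38 ± 0.07 with heat under control siRNA (3.45 times, adjusted p = 5.5e-07), against -0.08 ± 0.06 under YAP/TAZ siRNA (adjusted p = 0.267). The interaction of -1.47 ± 0.09 (adjusted p = 1.1e-05) ranked 39 by p-value among 12626 genes, and without heat the siRNAs were not called as different (0.07 ± 0.06, adjusted p = 0.3598).

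Zfp36l1 (chromosome 12, 80107754 to 80113013, minus strand, ENSMUSG00000021127) had the highest level of the 10 genes in each group. It measured 29.4, 28.1 and 28.1 FPKM in the unheated control libraries and 83.1 and 58.2 FPKM in the heated ones. The unheated YAP/TAZ siRNA libraries gave 38.4, 36.6 and 27.2 FPKM and the heated ones 29.0, 32.1 and 35.8 FPKM. Both heated control libraries lay above the other 9 and differed from each other, and the YAP/TAZ siRNA groups overlapped. Heat raised it by 1.26 ± 0.17 under control siRNA (2.47 times, adjusted p = 2.6e-04) and its value under YAP/TAZ siRNA was -0.07 ± 0.15 (adjusted p = 0.745). The difference of the responses was -1.32 ± 0.23 (adjusted p = 0.00211). The uncalled values with heat under YAP/TAZ siRNA turned sign with quantile normalization for Ier5 (0.07) and Zfp36 (0.06) and with median-of-ratios scaling for Zfp36l1 (0.03).

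Zfp36l2 (chromosome 17, 84183931 to 84187947, minus strand, ENSMUSG00000045817) moved least of the ZFP36 genes. It measured 10.1, 11.9 and 10.1 FPKM in the unheated control libraries and 12.9 and 12.3 FPKM in the heated ones. Knockdown libraries read 10.2, 10.1 and 9.13 FPKM when unheated and 8.62, 9.15 and 7.86 FPKM when heated. The control groups did not overlap, but heat was not called there (0.22 ± 0.09, adjusted p = 0.0580; it was called in 5 of 20 alternatives, among them median-of-ratios scaling at 0.38, adjusted p = 0.00428, and quantile normalization at 0.39, adjusted p = 0.0046) or under YAP/TAZ siRNA (-0.18 ± 0.08, adjusted p = 0.0779). After heat it was lower with YAP/TAZ siRNA (-0.51 ± 0.09, adjusted p = 8.6e-04). The interaction was called at -0.40 ± 0.11 (adjusted p = 0.0227), and leaving out unheated control replicate 1 or 3, heated control replicate 1 or unheated YAP/TAZ replicate 2 ended that call (adjusted p 0.0503 to 0.0873).

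Zfp36l1 made up most of the summed ZFP36 level, from 67.0 to 71.1% in unheated to 75.6 to 81.0% in heated control libraries. The sum was 41.1 ± 0.95 FPKM (SD, n = 3) in unheated and 89.8 ± 18.1 FPKM (SD, n = 2) in heated control cells, against 45.9 ± 6.65 and 42.7 ± 3.02 FPKM (SD, n = 3 each) with YAP/TAZ siRNA. Srf, Zfp36, Zfp36l1 and Zfp36l2 overlap other annotated genes on the opposite strand, and whether counting used strand is not given in the sources used here.

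**Figure D4:**
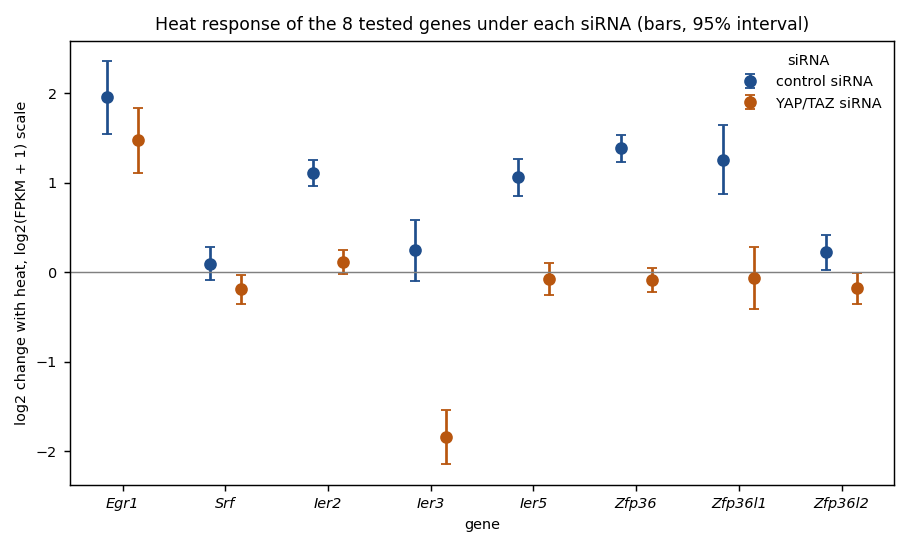
Log2 change with heat of the 8 tested genes under each siRNA, from limma on log2(FPKM + 1), with bars that span the 95% interval. For Zfp36 the control siRNA point is at 1.38 and the YAP/TAZ siRNA point at -0.08, and for Ier3 they are at 0.24 and -1.84.

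After heat, the control siRNA mean was 4.77 times the YAP/TAZ siRNA mean for Ier3, 4.12 times for Ier5 and 3.50 times for Zfp36. It was 2.38 times for Egr1, 2.19 times for Zfp36l1, 1.88 times for Ier2, 1.57 times for Srf and 1.47 times for Zfp36l2. The order of mean levels began with Zfp36l1 and Ier2 in all 4 groups. In unheated control cells Srf, Ier3 and Zfp36l2 followed with overlapping libraries, then Ier5, Zfp36 and Egr1, with Egr3 and Egr2 last. In heated YAP/TAZ siRNA cells Ier3 came after Zfp36l2 and Srf, at 2.78 FPKM, beside Egr1 at 2.44 FPKM, with overlapping libraries.

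Other early response genes, a list of 40 of which 35 were tested, mostly rose with heat under control siRNA. Fosb and Tnfaip3 reached 1 FPKM in the heated control libraries alone. They passed the filter only there, so they are set aside from the counts with heat under control siRNA and for the interaction. Without heated control replicate 1, where neither was tested, 20 of 33 rose, against 874 of all 12333 genes in that fit. In the fit of all libraries 9 of 35 rose and 12 fell under YAP/TAZ siRNA, against 18.6% and 31.7% of all genes. For the interaction in that fit most of the others were lower, against 13.4% of all genes. Jun, an AP-1 subunit, rose by 3.87 ± 0.08 under control siRNA (adjusted p = 7.1e-09) and by 2.26 ± 0.07 under YAP/TAZ siRNA (adjusted p = 2.8e-07). Btg2, an antiproliferative gene that also binds deadenylases, rose by 3.02 ± 0.09 under control siRNA and changed by -0.53 ± 0.08 under YAP/TAZ siRNA (adjusted p = 6.9e-08 and 7.1e-04). Nfkbia, the NF-κB inhibitor, changed by -1.67 ± 0.06 with heat under YAP/TAZ siRNA (adjusted p = 5.9e-07) and by 0.20 ± 0.07 under control siRNA (adjusted p = 0.0395).

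**Figure D5:**
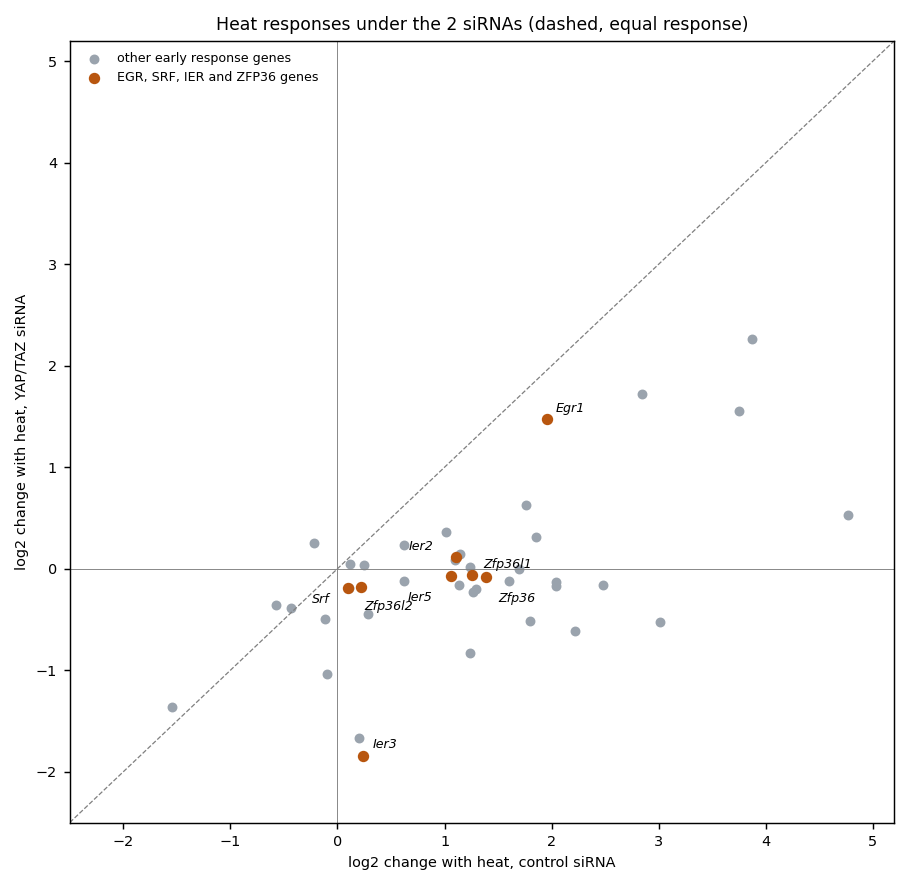
Log2 change with heat under control siRNA (x axis) against that under YAP/TAZ siRNA (y axis) for the 8 tested genes and 35 other early response genes, with the dashed line marking equal responses. Ier2, Ier5, Zfp36 and Zfp36l1 lie between 1.06 and 1.38 on the x axis and near 0 on the y axis, and Ier3 lies at -1.84 on the y axis.

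Of 5 tested SRF partner genes, 2 were lower with heat under control siRNA, against 36.9% of all genes. They were Elk3 (-0.76 ± 0.07, adjusted p = 2.7e-05) and Elk1 (-0.36 ± 0.08, adjusted p = 0.00341), both ternary complex factors. Both also fell with heat under YAP/TAZ siRNA. Of 8 tested cytoskeletal SRF target genes, 7 fell with YAP/TAZ siRNA without heat (median -0.68), against 21.9% of all genes. Among them were Tpm1, a tropomyosin (-1.08 ± 0.05, adjusted p = 5.4e-07), and Myl9, a myosin light chain (-1.81 ± 0.13, adjusted p = 4.8e-06). With heat under control siRNA 5 of the 8 fell and 1 rose, but the count that fell was 2 without heated control replicate 1 and 3 without heated control replicate 3. Nab1 and Nab2, corepressors of EGR proteins, were not called by limma in any of the 5 comparisons, and 1 of the 2 had an unadjusted p under 0.05 with heat under control siRNA and for the interaction.

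Of 21 tested deadenylation and mRNA decay genes, 9 fell and 1 rose with heat under control siRNA, where 36.9% of all genes fell. Under YAP/TAZ siRNA 10 fell and 1 rose, where 31.7% of all genes fell. Tob1 and Tob2 recruit the CCR4-NOT deadenylase. Tob1 changed with heat by 0.70 ± 0.06 under control siRNA and by -0.46 ± 0.06 under YAP/TAZ siRNA (adjusted p = 2.1e-05 and 2.5e-04), and Tob2 by -1.41 ± 0.08 and 0.06 ± 0.07 (adjusted p = 1.6e-06 and 0.508). Of 7 other AU-rich element binding genes and their regulators, 3 fell with heat under control siRNA, against 36.9% of all genes. Under YAP/TAZ siRNA 3 fell and 1, Hnrnpd, rose (0.29), against 31.7% and 18.6% of all genes. Khsrp, a decay-promoting RNA-binding protein, fell with heat under both siRNAs, at -0.42 ± 0.07 and -0.95 ± 0.06 (adjusted p = 8.7e-04 and 9.3e-06).

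Reported ZFP36 target mRNAs numbered 18, of which 9 were tested. With heat 4 rose and 3 fell under control siRNA, against 12.4% and 36.9% of all genes. Under YAP/TAZ siRNA 1 rose and 5 fell, against 18.6% and 31.7% of all genes. Dusp1, a MAP kinase phosphatase, rose by 2.04 ± 0.11 under control siRNA (adjusted p = 1.3e-06) and its value under YAP/TAZ siRNA was -0.13 ± 0.10 (adjusted p = 0.321). Vegfa, an angiogenic growth factor, rose by 0.72 ± 0.07 under control siRNA and changed by -0.39 ± 0.07 under YAP/TAZ siRNA (adjusted p = 4.9e-05 and 0.00124). Targets that fell with heat included Ccnd1 under control siRNA (-0.75) and Myc (-1.36) and Cited2 (-0.96) under YAP/TAZ siRNA. Dusp1, Fos and Myc belong to the early response list as well. Of 7 tested HSF1 and PP2A genes, linked to IER5, 3 fell and 1 rose with heat under control siRNA, where 36.9% of all genes fell. The count that fell was 1 without either heated control library, unheated control replicate 2 or 3, unheated YAP/TAZ replicate 2 or heated YAP/TAZ replicate 1. Of the same 7, 2 rose under YAP/TAZ siRNA, among them Hsf1 (0.24 ± 0.05, adjusted p = 0.00513).

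The genes most like single members over the 11 libraries were found by Pearson correlation of log2(FPKM + 1). Each search covered 6327 tested protein-coding genes with a mean of at least 5 FPKM, without those that carry Gm, Rik or clone names. It is a description in which all points share the 4 groups. Closest to Ier2 were Zfand2a (r = 0.980), Ppp1r15a (0.976) and Spty2d1 (0.976). Mean Zfand2a was 5.17 FPKM without heat and 27.4 FPKM after heat under control siRNA, and 6.06 and 6.71 FPKM under YAP/TAZ siRNA. Closest to Ier3 were Zmat3 (0.975), mt-Nd1 (0.971) and Trim63 (0.965), and mean Zmat3 was 8.94, 10.0, 9.28 and 4.66 FPKM in unheated control, heated control, unheated YAP/TAZ and heated YAP/TAZ siRNA cells. Zfp36l1 was closest to Elmod3 (0.946), Zfand2a (0.942) and Rbm15 (0.933). Srf was closest to Josd1 (0.966), Atp6v1b2 (0.957) and Pom121 (0.953), and Zfp36l2 to Smurf2 (0.975), Pdcd6ip (0.973) and Pdzd8 (0.963). Egr1, Ier5 and Zfp36 had means under 5 FPKM and were left out of this search.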

How the data were processed

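RNA of 11 libraries was measured as FPKM, which the authors deposited in 1 gene table. Per the submitters' processing notes, which give no role or order, the tools were Trimmomatic 0.36, HISAT2, SAMtools, StringTie and DESeq2 and the build GRCm38. Settings and the annotation release were not given in the sources used here. Read counts were not used here, so depth was estimated from the steps between low values (1 step on 1 kb was worth 0.0228 to 0.0328 FPKM), and no count model was run.

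Samples were grouped by their labels. The 12626 genes that reached 1 FPKM in 2 or more libraries entered, as log2(FPKM + 1), 1 limma fit (limma 3.58.1, R 4.3.3, 7 residual degrees of freedom, trend) without covariates. Tests were two-sided and p-values adjusted by Benjamini-Hochberg within each of 5 comparisons. The procedure was tested on simulated data. Named genes were all members, the targeted genes, up to 3 called genes per list and comparison by smallest p, and 3 genes of like pattern for each member with a mean of at least 5 FPKM. The members and lists were chosen with earlier results of these data known. Alternatives were pseudocounts of 0.1 and 5, no filter, a filter of 5 FPKM, other scalings, a replicate block, no trend, only the groups compared, and each library left out. For the lists they were added after the data were seen. Symbols matched 54038 of 54104 Ensembl identifiers, positions are from GENCODE M21, and promoters are from RefSeq. Python 3.11.15 was used with pandas 2.3.3, numpy 2.4.6 and, for figures, matplotlib 3.10.9. The heated control siRNA group was analysed without a replicate 2.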

Additional observations from a re-analysis of the deposited data

Results flagged for a closer look

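These results were picked out because the heat response differed between the siRNAs by limma's interaction test (adjusted p under 0.05, YAP/TAZ minus control siRNA, log2 scale). Among the 8 tested members the interaction was -0.99 for Ier2, -2.08 for Ier3, -1.13 for Ier5, -1.47 for Zfp36, -1.32 for Zfp36l1 and -0.40 for Zfp36l2. In the lists it was -3.54 for Btg2, -4.24 for Atf3, -1.87 for Nfkbia and -2.17 for Dusp1. Among SRF partners and targets it was 0.35 for Elk3, 1.03 for Actg1, 0.34 for Tpm1 and 0.40 for Cnn2. Among mRNA decay and AU-rich element binding genes it was -1.16 for Tob1, 1.47 for Tob2, 0.23 for Cnot9, -0.53 for Khsrp and 0.27 for Hnrnpd. It was -1.11 for Vegfa, 0.52 for Ccnd1 and 0.41 for Hsf1. No group held 4 or more libraries, so single libraries were not tested for standing apart.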

How the results depend on the processing

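The number of members called stayed within 1.5 times its main value under all alternatives run (20 in each comparison, 19 for the interaction), between 4 and 7 for heat with control siRNA, 2 and 3 for heat with YAP/TAZ siRNA, 5 and 7 for the interaction, 2 and 3 for YAP/TAZ siRNA without heat and 7 and 8 after heat. Of the values of single genes, 1387 of 1452 with a library left out and 1108 of 1158 others kept direction and call. These values include those of the named list genes, picked by smallest p among called genes, which favours keeping a call. The shares are therefore no measure of how stable the members alone were. The sign of 1 called value turned: Actg1, with heat under YAP/TAZ siRNA, was -0.14 with quantile normalization against 0.34. Signs of uncalled values turned 7 times. With heat under YAP/TAZ siRNA, quantile normalization gave 0.0739 for Ier5 and 0.0624 for Zfp36, and Zfp36l1 was 0.0333 with median-of-ratios scaling. With single libraries left out Zfp36l1 ranged from -0.215 to 0.0271, above 0 without unheated or heated YAP/TAZ siRNA replicate 1. Egr1 was 0.11 for the interaction with a pseudocount of 0.1, and Zfp36 was -0.0509 for YAP/TAZ siRNA without heat with quantile normalization. The causes were not tested. Another scaling moved the share of called genes that were higher from 25.1% to 44.3% (median-of-ratios) and 41.8% (quantile) for heat under control siRNA, from 37.0% to 50.8% and 48.7% under YAP/TAZ siRNA, from 66.9% to 51.6% and 55.8% for YAP/TAZ siRNA after heat, and from 55.3% to 45.6% and 49.9% without heat. Of counts in the lists for heat with control siRNA, SRF targets that fell went from 5 to 3 (median-of-ratios) and 2 (quantile), HSF1 and PP2A genes that fell from 3 to 1 with either scaling, mRNA decay genes that rose from 1 to 4 (quantile) and ZFP36 targets that rose from 4 to 7 without a filter. Over genes, the deviations of same-numbered libraries from their group means had r from -0.11 to 0.134 (15 pairs, 3 over 0.1). Those of other pairs between groups had r from -0.18 to 0.155 (30 pairs, 2 over 0.1), and sharing of cultures was not tested. With the replicate block Zfp36l2 was called with heat under both siRNAs (0.27, adjusted p = 0.00671, and -0.18, adjusted p = 0.0187), Srf lost its call with heat under YAP/TAZ siRNA (adjusted p = 0.0706) and Egr1 lost its call without heat (adjusted p = 0.0523). The 2 heated control libraries limit the precision of each comparison they enter.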
